A study of Mus musculus with 2 samples.

Results

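Sertoli cells are the somatic cells of the seminiferous tubule that enclose and feed the developing germ cells. In single-cell counts from mouse testis they were taken here as the cell barcodes in which 10 marker genes together gave at least 3 unique molecular identifiers (UMIs, each 1 captured transcript), from at least 2 of the genes, and at least 20 of every 10000 UMIs of the barcode. The 10 genes, called the rule genes below, were Defb19, Cst12, Aard, Clu, Rhox8, Tsx, Defb36, Amhr2, Wfdc10 and Etd. Of 26466 barcodes in 2 libraries, 2496 met the rule, 1548 of 12661 in a library labelled with a high-fat diet (HF, the high-fat library) and 948 of 13805 in a library labelled without a diet (NDN, the no-diet-named library). These shares were 12.2% in HF (95% exact Clopper-Pearson interval 11.7 to 12.8) and 6.87% in NDN (6.45 to 7.30), a difference of 5.36 percentage points (4.65 to 6.07, Newcombe interval).

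The high-fat library is labelled as testis of mice fed a high-fat diet. The no-diet-named library has a label with the tissue and no diet. The study describes 20 male C57 BL/6 mice, 5 weeks old, which after 1 week of adaptation were divided into 10 on maintenance feed and 10 on a feed with 60% of energy as fat for 12 weeks, but nothing ties the no-diet-named library to the maintenance feed. Both suspensions were made by collagenase IV and DNase digestion with mechanical break-up, a cell strainer and droplet capture. The labels call the cells germ cells and name no step that selects or removes Sertoli cells, and they do not say how many mice a library holds. With 1 library per group no test was possible, so every interval covers counting error only, and "higher" or "lower" compares these 2 libraries.

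Sertoli cells build the blood-testis barrier between neighbouring cells, respond to follicle-stimulating hormone and androgen on behalf of germ cells that lack those receptors, supply lactate as fuel, carry iron and retinoids across the barrier, and engulf dying germ cells and the cytoplasm that spermatids shed. Their identity rests on a set of transcription factors, among them Wt1, Sox9, Gata4 and Dmrt1. Adult Sertoli cells do not divide, and their secreted proteins include cystatins, defensins and clusterin, the families to which several of the rule genes belong.

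Sertoli barcodes were shallow. Their median was 1648.5 UMIs in the high-fat library and 1430 in the no-diet-named library, against 13126 UMIs in the other barcodes of HF and 13642 in those of NDN, and the lowest totals deposited were 1025 UMIs in HF and 1000 in NDN. Summed, they held 4191445 UMIs in HF and 2113558 in NDN, which were 2.08% of all UMIs of HF and 1.02% of those of NDN. After thinning each barcode to 1000 UMIs the median number of genes was 757 in Sertoli barcodes and 742 in the rest of HF, and 740 and 730 in NDN. A total above 10000 UMIs was found in 56 Sertoli barcodes of HF and 28 of NDN. Doublet calls, made at a fixed rate of 6% of barcodes per library, fell on 51 Sertoli barcodes (3.29%) and 6.38% of the rest in HF, and on 45 (4.75%) and 6.09% in NDN. The files name barcodes by running labels, and 1507 labels occur in both libraries, 23 of them on Sertoli barcodes of both.

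The share of barcodes that met the rule depended on depth. Among barcodes of 1000 to under 1500 UMIs, 643 of 1799 in the high-fat library and 510 of 1412 in the no-diet-named library met it, 35.7% in HF (33.5 to 38.0) and 36.1% in NDN (33.6 to 38.7). At 1500 to under 2500 UMIs the shares were 28.9% in HF (26.8 to 31.1) and 18.2% in NDN (16.3 to 20.3). At 2500 or more UMIs they were 4.35% in HF (3.94 to 4.79) and 1.54% in NDN (1.32 to 1.79). The libraries thus had like shares among the shallowest barcodes and differed among the deeper ones. The smallest total accepted before deposit limits what these shares say of the tissue.

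**Figure D1:**
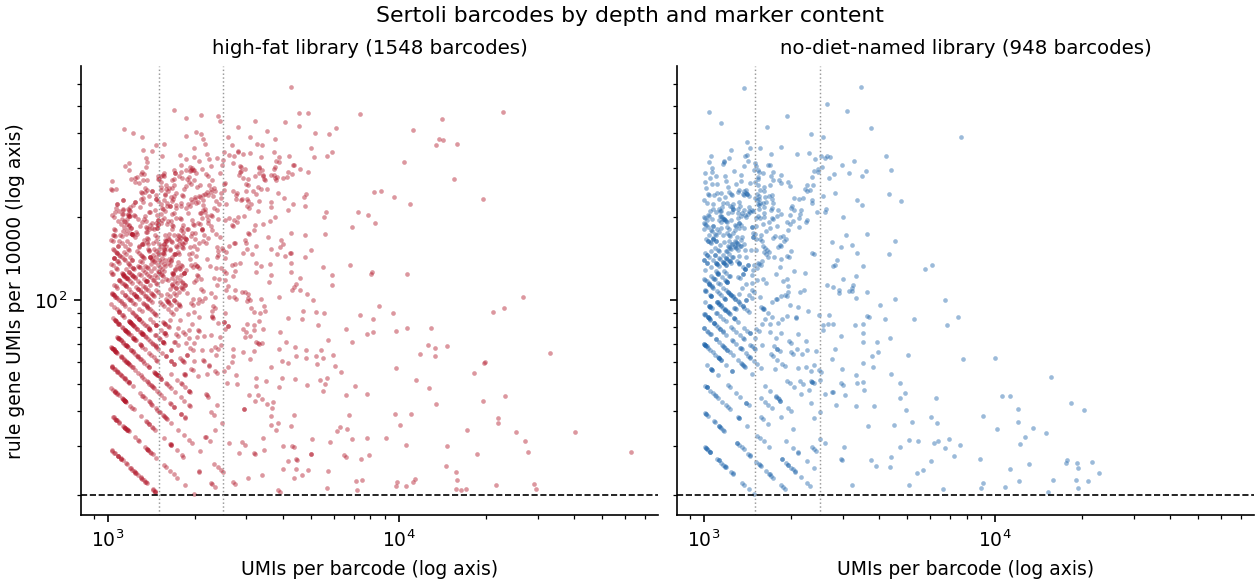
Total UMIs per Sertoli barcode (log axis) against UMIs of the 10 rule genes per 10000 (log axis), high-fat library on the left and no-diet-named library on the right, 1 point per barcode. The dashed line is the smallest share of the rule, 20 per 10000, and the dotted lines mark 1500 and 2500 UMIs. Of the barcodes with 5000 to under 10000 UMIs, 24 of 73 in the high-fat library and 4 of 30 in the no-diet-named library had 100 or more rule gene UMIs per 10000.

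The promoters shown are those of an X-linked androgen target and of a cluster of cystatin genes, 1 of which (Cst9) differed between the libraries more than its neighbours. Rhox5, Cstdc1 and Cst9 were strongly concentrated in Sertoli barcodes. Cst12 is a rule gene, so its concentration there follows from the rule. Each is the RefSeq sequence (GRCm38.p6) of 250 bases before to 50 bases after the annotated start, on the plus strand, 5′ to 3′. Rhox5 (chrX:37754358-37754657) is a homeobox gene on the X chromosome known as an androgen target of Sertoli cells. Cstdc1 (chr2:148781759-148782058), Cst12 (chr2:148789115-148789414) and Cst9 (chr2:148834897-148835196) are cystatin genes that lie close together on chromosome 2. Capitals mark AGAACA, a half-site bound by steroid receptors, or AGATAA, the site of GATA factors, on either strand (TGTTCT is AGAACA read on the other strand).
Rhox5: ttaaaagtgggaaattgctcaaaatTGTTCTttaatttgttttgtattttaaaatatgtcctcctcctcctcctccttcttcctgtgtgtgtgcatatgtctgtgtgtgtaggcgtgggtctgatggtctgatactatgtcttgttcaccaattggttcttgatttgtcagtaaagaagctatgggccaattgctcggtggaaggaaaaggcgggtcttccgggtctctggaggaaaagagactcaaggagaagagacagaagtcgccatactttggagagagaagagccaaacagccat
Cstdc1: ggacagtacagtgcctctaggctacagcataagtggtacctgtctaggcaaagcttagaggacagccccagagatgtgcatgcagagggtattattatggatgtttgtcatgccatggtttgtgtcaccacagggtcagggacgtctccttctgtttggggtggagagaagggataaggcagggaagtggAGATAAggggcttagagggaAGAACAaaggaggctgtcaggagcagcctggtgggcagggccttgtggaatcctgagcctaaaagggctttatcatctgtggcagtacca
Cst12: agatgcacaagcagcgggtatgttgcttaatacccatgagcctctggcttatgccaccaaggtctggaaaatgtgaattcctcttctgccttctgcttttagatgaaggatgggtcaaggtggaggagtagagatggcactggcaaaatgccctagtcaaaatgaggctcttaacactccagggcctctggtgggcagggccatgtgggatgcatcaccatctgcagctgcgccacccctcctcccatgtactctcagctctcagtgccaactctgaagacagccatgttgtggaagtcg
Cst9: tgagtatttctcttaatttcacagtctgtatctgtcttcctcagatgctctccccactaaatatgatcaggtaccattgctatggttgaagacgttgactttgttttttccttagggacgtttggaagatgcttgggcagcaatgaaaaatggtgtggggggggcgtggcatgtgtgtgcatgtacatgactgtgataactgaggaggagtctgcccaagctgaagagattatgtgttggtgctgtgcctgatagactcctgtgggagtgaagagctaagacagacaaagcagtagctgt
Rhox5 has AGAACA on the opposite strand 225 bases before its start, and Cstdc1 has AGATAA and AGAACA 60 and 40 bases before its start. Cst12 and Cst9 hold neither these letters nor AACAATG, a SOX factor site, nor AGGTCA, a nuclear receptor half-site, in this window. AGAACA ends and AACAATG begins with AACA, so 1 stretch can hold both. Over all 32851 RefSeq promoters of this length, of 27025 genes, the shares with a match on either strand were 19.0% for AGAACA, 16.3% for AGGTCA, 11.2% for AGATAA and 3.78% for AACAATG. Over the 1350 promoters of 1060 genes enriched in Sertoli barcodes (defined below) they were 13.1%, 12.8%, 6.52% and 2.44%. Of the rule genes, 6 have an entry in the promoter table.

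The rule genes chose the barcodes, so their levels are a description. Defb19, a beta-defensin, was the most abundant, at 4907 CPM (4839.8 to 4974) in the high-fat library and 3895 CPM (3811 to 3979.9) in the no-diet-named library, where CPM is a gene's count per 1000000 UMIs summed over the Sertoli barcodes and the interval is the exact Poisson one. It was seen in all but 27 of them in HF and all but 32 in NDN. Clu, the secreted chaperone clusterin, was at 1728 CPM in the high-fat library and 1031 CPM in the no-diet-named library, and Cst12 was at 1479.7 CPM in the high-fat library and 1280.3 CPM in the no-diet-named library. The 10 genes ranged from 439 CPM (Rhox8) to 4907 CPM (Defb19) in the high-fat library and from 446 CPM (Amhr2) to 3895 CPM (Defb19) in the no-diet-named library. Amhr2, the receptor of anti-Müllerian hormone, was at 556 CPM in the high-fat library and 446 CPM in the no-diet-named library. A median of 7 of the 10 genes in HF and 6 in NDN was seen per barcode. The rule genes' UMIs inside Sertoli barcodes were 82.1% of all their UMIs in HF and 73.3% in NDN.

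At the edge of the rule, 111 barcodes of the high-fat library and 95 of the no-diet-named library had 20 to under 30 rule gene UMIs per 10000. Just outside it, 147 barcodes of HF and 110 of NDN that met the other conditions had 10 to under 20. Wt1, which was not in the rule, stood at 6.74 CPM in HF and 4.37 CPM in NDN just inside, at 4.72 CPM in HF and 5.74 CPM in NDN just outside, and at 48.4 CPM in HF and 29.6 CPM in NDN in Sertoli barcodes above 30 per 10000. Rhox5 had 38.7 CPM in HF and 48.1 CPM in NDN inside and 23.0 CPM in HF and 24.9 CPM in NDN outside. Levels of both genes thus fell off within the edge of the rule, and the median depth was 2259 UMIs in HF and 2022 in NDN just inside and 7421 in HF and 7948.5 in NDN just outside.

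Genes outside the rule were then set against the rest of each library. A gene was called enriched where it had at least 20 counts over Sertoli and other barcodes and the lower bound of its ratio of Sertoli barcodes to the rest (exact 95% interval) was above 4 in both libraries. In the high-fat library 1809 of 24467 genes with enough counts (7.39%) passed, and in the no-diet-named library 1693 of 24325 (6.96%). Of 23164 genes with enough counts in both, 1344 (5.80%) were enriched. Some of the Sertoli barcodes were rich in transcripts of elongating spermatids (described below), and 1263 of the genes (5.45%) stayed enriched in both libraries without those barcodes. These 1263 are called Sertoli-enriched genes from here on. The name means enriched over the rest only. The set also holds genes with most of their no-diet-named counts in a few barcodes that met the Leydig rule too. Cyp17a1, Hsd3b1, Jak3 and Lcn2 are among these (described below). Both shares describe barcodes picked by co-expressed markers and carry no test.

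The Sertoli transcription factors were enriched without exception. All 12 genes of that list passed in both libraries, with median ratios to the rest of 97.5 in the high-fat library and 101 in the no-diet-named library. Wt1, needed to keep Sertoli identity, was at 42.5 CPM (36.5 to 49.2) in the high-fat library and 24.1 CPM (18.0 to 31.7) in the no-diet-named library, and its ratios to the rest were 119.9 in HF and 76.3 in NDN. Sox9, which directs the Sertoli fate, was at 61.8 CPM (54.5 to 69.8) in the high-fat library and 56.3 CPM (46.6 to 67.4) in the no-diet-named library, with ratios of 161 in HF and 87.0 in NDN. Both were sparse in absolute terms and nearly absent from the other barcodes. Gata4 was at 24.8 CPM in the high-fat library and 19.4 CPM in the no-diet-named library, with ratios of 32.7 in HF and 15.2 in NDN. Dmrt1, which spermatogonia also use, had the ratios 7.33 in HF and 9.44 in NDN. Gata4, which other somatic cells also use, and Dmrt1 thus had lower ratios than Wt1 and Sox9, and the X-linked homeobox gene Rhox5 was at the high end, with 220.2 in HF and 266 in NDN. Genes that did not choose the barcodes thus bear the Sertoli label out.

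Hormone and growth factor genes were enriched in part. Of 13 with enough counts in both libraries, 5 passed, namely Inha, Inhbb, Dhh, Kitl and Fshr. Inha, the inhibin alpha subunit through which Sertoli cells restrain the pituitary, was at 375 CPM (357 to 394) in the high-fat library and 273 CPM (252 to 297) in the no-diet-named library, with ratios of 50.2 in HF and 46.9 in NDN. Dhh, the hedgehog signal to Leydig and peritubular cells, was at 33.6 CPM in the high-fat library and 26.0 CPM in the no-diet-named library. Kitl, the ligand of the receptor on differentiating spermatogonia, was at 16.2 CPM in the high-fat library and 10.9 CPM in the no-diet-named library. These signals were at low levels beside Inha. Fshr, the receptor of follicle-stimulating hormone, was sparse, at 4.29 CPM (2.55 to 6.79) in the high-fat library and 5.68 CPM (2.93 to 9.92) in the no-diet-named library, from 18 counts in HF and 12 in NDN. Amh, the hormone of immature Sertoli cells, had no count in either library, which allows up to 0.716 CPM in HF and 1.42 CPM in NDN (3 counts per library). Gdnf, the niche signal of spermatogonial stem cells, had 3 counts in HF and 2 in NDN.

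At the blood-testis barrier and the junctions, 7 of 22 genes were enriched in both libraries. Cldn11, the claudin that seals the barrier, was the strongest, at 92.1 CPM (83.1 to 102) in the high-fat library and 71.4 CPM (60.5 to 83.8) in the no-diet-named library, with ratios of 189.6 in HF and 163 in NDN. The others were F11r, a junctional adhesion molecule, Nectin2, of the contact with spermatids, Cgn (cingulin), Ctnna1 (alpha-catenin) and the integrin subunits Itga6 and Itgb1. F11r and Itgb1 were higher still in stroma barcodes (values below). Nectin2 had ratios of 18.3 in HF and 19.8 in NDN and F11r of 31.0 in HF and 26.5 in NDN. The tight junction scaffold Tjp1 was near the level of the rest, with ratios of 1.60 in HF and 1.11 in NDN. Espn, an actin bundler of the Sertoli contact with spermatids, stood apart between the libraries. It was at 473 CPM (452 to 494) in the high-fat library and 583 CPM (551 to 617) in the no-diet-named library, yet its ratios to the rest were 21.3 in HF and 2.39 in NDN, since the other barcodes held 22.3 CPM in HF and 244 CPM in NDN. Defb45, a further beta-defensin, did the same, with 295 CPM in the high-fat library and 279.6 CPM in the no-diet-named library but ratios of 165 in HF and 24.0 in NDN.

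Of the secreted carriers and protease inhibitors, 11 of 17 with enough counts were enriched in both libraries. Sparc, a matrix glycoprotein, was at 1192 CPM in the high-fat library and 807 CPM in the no-diet-named library, and Ctsl, the protease cathepsin L, at 650.1 CPM in the high-fat library and 485 CPM in the no-diet-named library. Serpina5, a serine protease inhibitor, had ratios of 199.9 in HF and 219.98 in NDN, Shbg, the androgen binding protein, of 195 in HF and 156 in NDN, and Trf, transferrin, of 80.8 in HF and 51.1 in NDN. In the list of phagocytosis and lysosome genes, 8 of 17 passed, among them all 3 receptors of the TAM family. Tyro3 had ratios of 65.3 in HF and 95.3 in NDN, Axl of 47.2 in HF and 54.8 in NDN and Mertk, which is known for clearing apoptotic germ cells, of 25.3 in HF and 21.2 in NDN, and their ligand Gas6 had 85.8 in HF and 114 in NDN. Of the genes for glucose and lactate supply 6 of 18 passed, with the lactate dehydrogenase subunit Ldhb at 736 CPM in the high-fat library and 693 CPM in the no-diet-named library, and the glycolytic genes Pfkl, Hk2, Gapdh and Pkm and the lactate transporter Slc16a1. The lactate dehydrogenase subunit Ldha was below the rest, with ratios of 0.545 in HF and 0.584 in NDN.

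**Figure D2:**
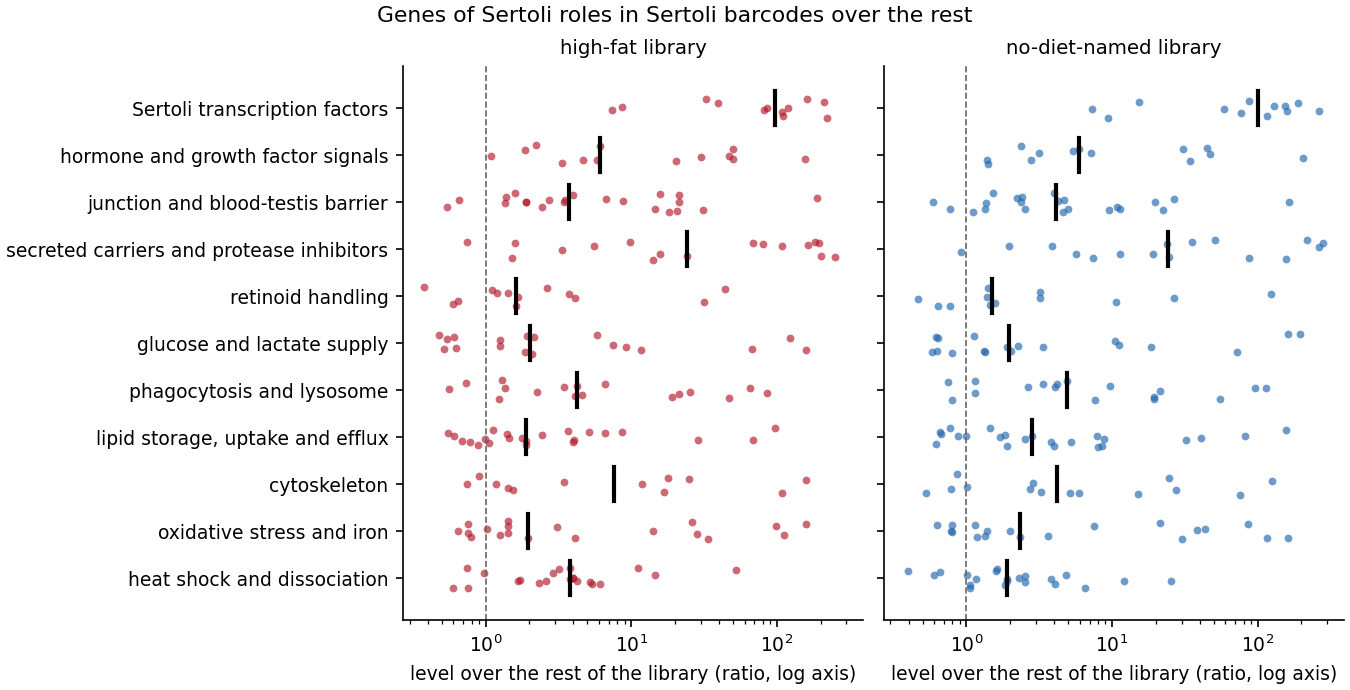
Ratio of the level in Sertoli barcodes to the level in the rest of the same library (log axis) for the genes of 11 lists, high-fat library on the left and no-diet-named library on the right. Each point is 1 gene with at least 20 counts and at least 1 count in Sertoli barcodes, the black bar is the median of the points drawn, and the dashed line is a ratio of 1. All 12 transcription factors lie above it.

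The 20 genes outside the rule with the highest lower bounds were led by Cst9, with ratios of 252 in HF and 280.4 in NDN. Next came Tpbgl at 338 in HF and 434 in NDN, the X-linked 1700018G05Rik at 228 in HF and 309 in NDN, Adora1, an adenosine receptor, at 291 in HF and 343 in NDN, and Cstdc1 at 256 in HF and 314 in NDN. The list also held Gatm, the first enzyme of creatine synthesis, at 433 CPM in the high-fat library and 275 CPM in the no-diet-named library, the glutathione transferases Gstm6 and Gstm7, Basp1, Serpina5, Ldhb, Rhox5 and Alas2, the erythroid form of the first enzyme of haem synthesis, whose ratios were 223 in HF and 214 in NDN. The X-linked genes 1700018G05Rik, 1700011M02Rik, Gm9112 and Gm3880 have transcripts alike in sequence and were all in it. As 94.5% of the Gm9112 transcript matched that of 1700011M02Rik, how reads were split between these is uncertain. The remaining genes of the 20 were 4933402E13Rik, Gm37350, Trpc5os and Gm648.

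X-linked genes were frequent among them. Of the 20 genes, 9 lie on the X chromosome in the GENCODE M21 annotation, and of the 1343 enriched genes with a chromosome, 161 (12.0%) do, against 791 (3.42%) of the 23116 genes with enough counts. Put the other way, 20.4% of X-linked and 5.28% of autosomal genes with enough counts were enriched. These shares are relative to the other barcodes of testis libraries that the labels describe as germ cells, and in male germ cells the X chromosome is silenced during meiosis.

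Barcodes of 2 other somatic cell types were found with the same form of rule, applied to 8 Leydig and 10 interstitial stroma markers. Without barcodes that met more than 1 rule, 24 Leydig and 167 stroma barcodes remained in HF, with 57235 and 399068 UMIs, and 10 and 135 in NDN, with 18322 and 317484 UMIs. Inha was at 376 CPM in HF and 275 CPM in NDN in Sertoli barcodes, against 7.52 CPM in HF and 12.6 CPM in NDN in stroma. Cldn11 was at 92.8 CPM in HF and 72.8 CPM in NDN in Sertoli barcodes, against 2.51 CPM in HF and 0 CPM in NDN in stroma, and had no count in Leydig barcodes. The lower bound of its ratio to Leydig barcodes was 1.43 in HF and 0.357 in NDN, so no difference from them is shown in NDN. Gata1, Nr0b1 and Dhh had no count in stroma. They had none in Leydig barcodes either, where so few UMIs allow up to 64.5 CPM in HF and 201 CPM in NDN (upper Poisson bound), above the Sertoli levels of the 3 genes, so that no difference from Leydig barcodes is shown. Gata4 and Kitl were not higher in Sertoli barcodes than in stroma. Gata4 was at 24.3 CPM in HF and 17.3 CPM in NDN there and at 47.6 CPM in HF and 37.8 CPM in NDN in stroma. Itgb1 was at 20.0 CPM in HF and 18.3 CPM in NDN in Sertoli barcodes, against 145 CPM in HF and 173 CPM in NDN in stroma, and F11r at 49.0 CPM in HF and 37.1 CPM in NDN, against 87.7 CPM in HF and 69.3 CPM in NDN in stroma. For Ctnna1 the intervals of the ratio to stroma include 1 in both libraries. Serpina5 was at 76.6 CPM in Sertoli barcodes of NDN, against 382 CPM from 7 counts in Leydig barcodes of NDN, a ratio of 0.201 (0.0951 to 0.507). This was not seen in HF, with 76.0 CPM in Sertoli barcodes against 34.9 CPM from 2 counts in Leydig barcodes. The ratio there was 2.17 (0.597 to 18.0). Enrichment over the rest, which the labels call germ cells, thus does not by itself show enrichment over other somatic cells.

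Germ cell transcripts were plentiful in Sertoli barcodes. The 10 spermatocyte markers, summed, were at 0.618 (0.612 to 0.624) times the rest in the high-fat library and 0.639 (0.630 to 0.648) times in the no-diet-named library. Round spermatid markers were at 0.834 (0.817 to 0.851) times the rest in the high-fat library and 0.762 (0.737 to 0.786) times in the no-diet-named library, and spermatogonial markers at 0.659 (0.641 to 0.678) times the rest in the high-fat library and 0.702 (0.675 to 0.730) times in the no-diet-named library. Summed, markers of these earlier germ cells were thus below the level of the rest in both libraries, but not every single marker was. The median ratio of the spermatogonial markers was 0.822 in HF and 1.81 in NDN. Single markers reached 1337% of the rest in HF and 1669% in NDN for spermatogonia. They reached 121% in HF and 243% in NDN for spermatocytes, and 502% in HF and 791% in NDN for round spermatids. Elongating spermatid markers were higher than in the rest, at 5.28 (5.26 to 5.31) times the rest in the high-fat library and 6.43 (6.38 to 6.47) times in the no-diet-named library. Among other somatic types, Leydig markers were at 0.932 (0.857 to 1.01) times the rest in the high-fat library and 2.03 (1.87 to 2.19) times in the no-diet-named library. Without 7 Sertoli barcodes of HF and 8 of NDN that also met the Leydig rule they were at 0.855 (0.783 to 0.931) times the rest in HF and 0.887 (0.784 to 1.00) times in NDN. Those barcodes were picked by these same markers, and the rest kept its own Leydig barcodes. A fall was therefore set by the removal, and the lower values are a description only. Peritubular myoid markers were at 2.95 (2.81 to 3.09) times the rest in the high-fat library and 2.78 (2.58 to 2.99) times in the no-diet-named library. Only 1 of these 8 markers was enriched in both libraries, and their median ratio was 1.49 in HF and 1.55 in NDN. Single markers ranged from 91.8% to 4984% of the rest in HF and from 79.1% to 3346% in NDN. Interstitial stroma markers summed to 74.2 CPM in HF and 51.1 in NDN, which was 210% of the rest in HF and 142% in NDN. Endothelial markers summed to 18.8 CPM in HF and 37.9 in NDN, 101% of the rest in HF and 81.1% in NDN. Immune markers summed to 20.8 CPM in HF and 17.0 in NDN, 171% of the rest in HF and 234% in NDN. The intervals of the ratio were above 1 in both libraries for stroma and immune markers and included 1 for endothelial markers. Of 12 immune markers 8 had enough counts in both libraries to be set against the rest. In Sertoli barcodes 4 of the 12 were at 0 in HF and 5 in NDN. The macrophage markers Lyz2, Cd68 and Tyrobp were at 0 in both libraries. The macrophage marker C1qb was seen in 18 Sertoli barcodes of HF and 14 of NDN, and C1qa and Adgre1 had counts in HF only. What free RNA, fused barcodes or engulfed cells add to these levels was not tested.

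The elongating spermatid signal was concentrated in a minority of the barcodes. The median content was 80.1 UMIs of the 10 markers per 10000 in Sertoli barcodes against 39.9 in the rest of HF, and 39.4 against 21.4 in NDN. A content of 500 or more UMIs of the 10 markers per 10000, a limit set after the values were seen, was reached by 149 of 1548 Sertoli barcodes in the high-fat library (9.63%, 8.20 to 11.2) and by 101 of 948 in the no-diet-named library (10.7%, 8.76 to 12.8). In the rest it was reached by 3.23% of barcodes in HF (2.91 to 3.58) and 1.79% in NDN (1.57 to 2.03). These barcodes were deeper than the other Sertoli barcodes and held a smaller share of rule gene UMIs. The rich barcodes had a median depth of 3454 UMIs against 1572 in the others of HF, and of 2330 against 1378 in NDN. Their median of rule gene UMIs per 10000 was 78.1 against 116 in HF, and 57.1 against 118 in NDN. The rule genes chose the barcodes, and a large share of spermatid UMIs leaves less for other genes, so this is a description. Only 1 of them in each library was called a doublet. Prm1, the protamine that packs sperm DNA, was at 55779 CPM in HF and 61486 in NDN in the rich barcodes, at 1172 CPM in HF and 803 in NDN in the other Sertoli barcodes and at 1273 CPM in HF and 744 in NDN in the rest of the libraries. Cldn11 was at 39.3 CPM in HF and 47.2 in NDN in the rich barcodes, 106 CPM in HF and 76.4 in NDN in the other Sertoli barcodes and 0.486 CPM in HF and 0.438 in NDN in the rest. The rich barcodes carried Sertoli and late spermatid transcripts side by side.

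**Figure D3:**
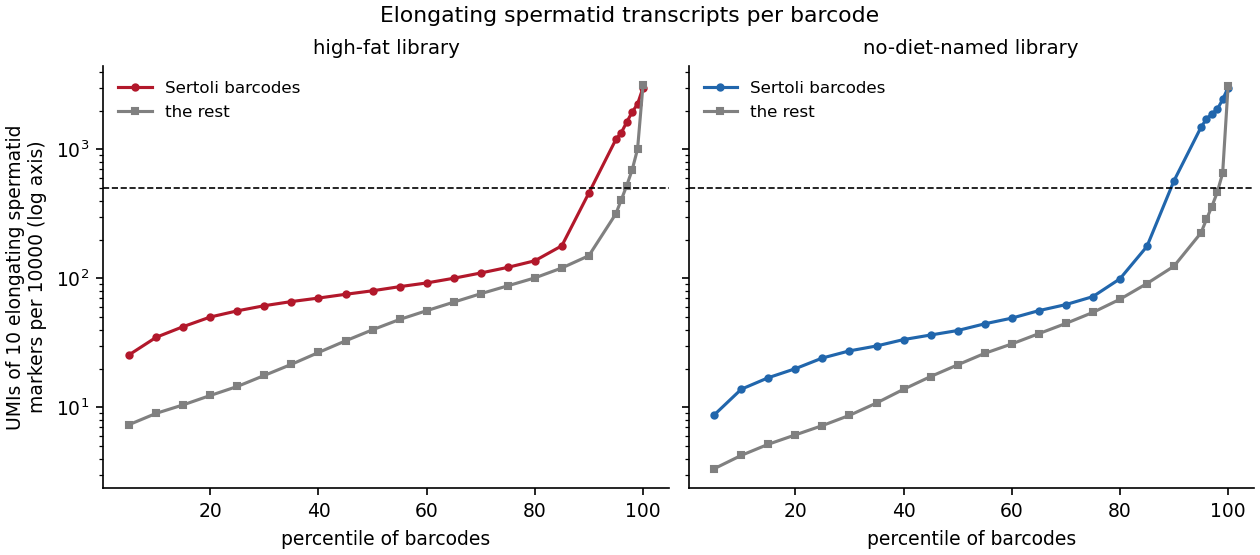
UMIs of 10 elongating spermatid markers per 10000 UMIs of a barcode (log axis) at every 5th percentile of barcodes and at each one from 96 to 100, Sertoli barcodes in colour and the rest in grey, high-fat library on the left and no-diet-named library on the right. The dashed line is 500 per 10000, which 9.63% of the Sertoli barcodes reached in HF and 10.7% in NDN.

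Between the libraries, 14359 genes outside the rule had at least 20 counts over the Sertoli barcodes of both. Of these, 836 (5.82%) were at least 2-fold higher in the high-fat library and 692 (4.82%) at least 2-fold lower, with an interval of the ratio that excludes 1. The median log2 ratio was -0.012. Of the 1230 Sertoli-enriched genes among them, 31 (2.52%) were higher and 36 (2.93%) lower by that measure, against 6.14% and 5.01% of the 13055 measured genes that were not enriched, and their median log2 ratio was 0.047, with 660 above 0. The 36 lower genes include Cyp17a1, Hsd3b1, Jak3 and Lcn2, whose no-diet-named counts lay mostly in a few barcodes that also met the Leydig rule. These shares are set in part by the choice of genes, since a gene much lower in 1 library can fail to be enriched there and then drops out.

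No transcription factor of the Sertoli list differed by 2-fold. Of 12, 8 lay above the median of all genes, and their median log2 ratio was 0.11. Wt1 was the highest, with a ratio of 1.76 (1.28 to 2.45), whereas Sox9 had 1.10 (0.880 to 1.38) and Nr5a1, the steroidogenic factor, 0.805 (0.588 to 1.11). Of the 17 hormone and growth factor genes 8 had enough counts, and none differed by 2-fold. Their median was 0.14, and Inha had a ratio of 1.37 (1.25 to 1.51). Among junction genes, 1 of 18 was higher and 1 was lower, beside 5.82% and 4.82% of all measured genes. Cldn3, a claudin of the barrier and an androgen target, was higher, at 39.1 CPM (33.4 to 45.6) in the high-fat library and 7.57 CPM (4.33 to 12.3) in the no-diet-named library. Lamb3, a laminin chain, was lower, at 6.20 CPM (4.05 to 9.09) in the high-fat library and 15.6 CPM (10.7 to 21.9) in the no-diet-named library, and its ratio in the rest, -1.10 on the log2 scale, was similar. Neither was Sertoli-enriched, and the ratios of Cldn3 to the rest were 8.78 in HF and 2.40 in NDN. Of 10 androgen-responsive genes, 3 of them also rule genes, Cldn3 was the only one past 2-fold, and Rhox5 had a ratio of 1.09 (0.969 to 1.24).

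These sums gave more weight to deep barcodes, and the direction of the Sertoli-enriched genes changed with depth. In barcodes of 1000 to under 1500 UMIs their median log2 ratio was -0.50 and 127 of 777 genes with at least 20 counts lay above 0. It was -0.15 at 1500 to under 2500 UMIs, with 337 of 847 above 0, and 0.57 at 2500 or more UMIs, with 909 of 1092 above 0. From the shallowest to the deepest class, 2, 21 and 190 of them were at least 2-fold higher and 131, 44 and 17 at least 2-fold lower. Over all genes of each class, 9.10% were higher and 6.45% lower in the first, 6.59% and 4.81% in the second and 6.79% and 4.29% in the third, and the medians were -0.050, 0.0064 and 0.052. The counts therefore leaned lower in shallow and higher in deep barcodes of the high-fat library. Without the barcodes rich in elongating spermatid transcripts and without doublet calls the medians of the Sertoli-enriched genes were -0.54, -0.25 and 0.59. With each barcode weighted equally, the median over all Sertoli barcodes was -0.21.

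By depth, from the shallowest to the deepest class, the median log2 ratio of the Sertoli transcription factors was -0.55, -0.0013 and 0.66, with 1 of 10, 5 of 10 and 12 of 12 measured genes above 0. That of the junction genes was -0.38, -0.19 and 0.77, and 7 of 16 were at least 2-fold higher in the deepest class, beside 6.79% of all genes. The rule genes chose the barcodes, so their content by depth is a description. They made up 114 UMIs per 10000 in the high-fat library and 133 in the no-diet-named library at 1000 to under 1500 UMIs, 148 in HF and 136 in NDN at 1500 to under 2500 UMIs, and 124 in HF and 74.1 in NDN at 2500 or more. Wt1 was at 38.7 CPM in HF against 37.5 in NDN at 1000 to under 1500 UMIs, 52.6 CPM in HF against 35.7 in NDN at 1500 to under 2500 UMIs and 39.8 CPM in HF against 10.0 in NDN at 2500 or more. Inha was at 306 CPM in HF against 342 in NDN at 1000 to under 1500 UMIs, 379 CPM in HF against 308 in NDN at 1500 to under 2500 UMIs and 396 CPM in HF against 214 in NDN at 2500 or more. Within the no-diet-named library both genes were lowest in the deepest class. The deepest class held 396 barcodes, 58.2% of the Sertoli UMIs and 38 doublet calls (9.60%) in the high-fat library, against 168 barcodes, 47.1% of the UMIs and 27 doublet calls (16.1%) in the no-diet-named library. The 30 germ cell markers summed to 291% of the level of the rest in HF and 297% in NDN in the deepest class, to 112% in HF and 155% in NDN in the middle one and to 93.6% in HF and 91.4% in NDN in the shallowest. The part of doublets and of germ cell transcripts in the change with depth was not tested, and the medians without doublet calls are given above.

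**Figure D4:**
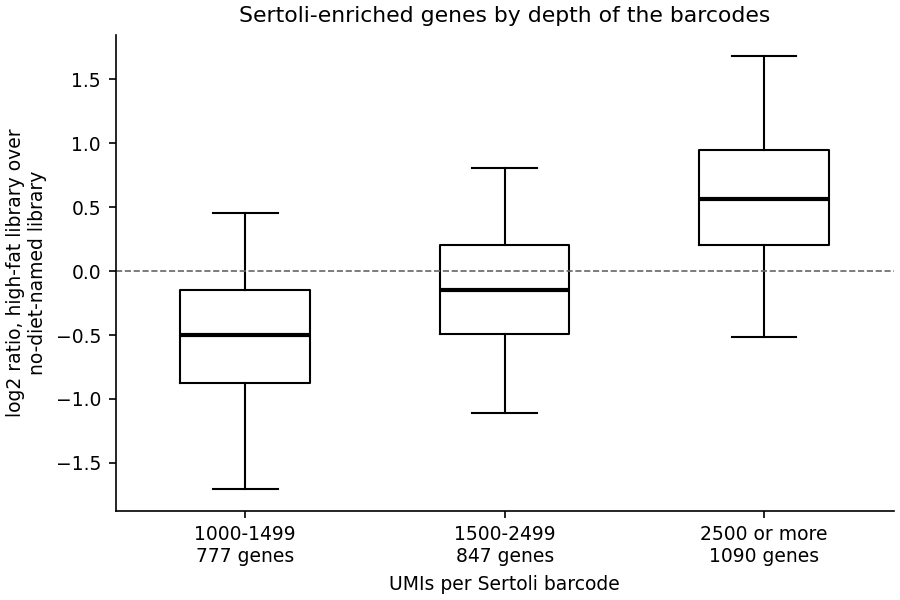
Log2 ratio of the high-fat library over the no-diet-named library for Sertoli-enriched genes with at least 20 counts in a depth class of Sertoli barcodes. The box spans the quartiles, the thick line is the median, whiskers run from the 5th to the 95th percentile of genes, and the dashed line is 0. In the deepest class 2 of the 1092 genes had no count in 1 library and are not drawn. The medians are -0.50, -0.15 and 0.57 from the shallowest to the deepest class.

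Some genes differed in the same direction in all 3 classes. Among genes enriched in both libraries, Cst9, a cystatin, was furthest above, at 2020.3 CPM (1978 to 2064) in the high-fat library and 187 CPM (169 to 206) in the no-diet-named library. It was seen in 82.7% (80.7 to 84.5) of Sertoli barcodes in the high-fat library and 28.1% (25.2 to 31.0) in the no-diet-named library, and after thinning to 1000 UMIs in 70.3% of Sertoli barcodes and 1.25% of the others in HF, and in 19.4% and 0.0622% in NDN. By depth its log2 ratios were 2.88, 3.19 and 3.98, and the lowest bound of its ratio in any class was 6.18. Its neighbours on chromosome 2 differed less. Cst12, a rule gene, had a ratio of 1.16 (1.10 to 1.21) and Cstdc1 1.51 (1.28 to 1.79). The log2 ratio of Cst9 in the rest of the barcodes, at 8.03 CPM in HF and 0.666 CPM in NDN, was 3.59, close to the 3.43 in Sertoli barcodes.

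Tnfrsf12a, the receptor of the cytokine TWEAK, was furthest below among the same genes. It was at 4.53 CPM (2.73 to 7.08) in the high-fat library and 113 CPM (98.8 to 128) in the no-diet-named library, and was seen in 1.03% (0.592 to 1.67) of Sertoli barcodes in the high-fat library and 18.2% (15.8 to 20.9) in the no-diet-named library. After thinning it was seen in 0.323% of Sertoli barcodes and 0.0810% of the others in HF, and in 10.8% and 0.179% in NDN. Its log2 ratios by depth were -6.72, -4.59 and -4.13. In the rest of the barcodes the log2 ratio was -0.83. Spink8, a protease inhibitor, was lower too, at 6.44 CPM (4.25 to 9.37) in the high-fat library and 52.5 CPM (43.2 to 63.2) in the no-diet-named library, with log2 ratios by depth of -2.88, -3.54 and -2.45. Chp2, a calcineurin B homologous protein, was at 44.9 CPM (38.7 to 51.7) in the high-fat library and 176 CPM (159 to 195) in the no-diet-named library, with -2.66, -1.76 and -1.32 by depth. For both, the rest of the barcodes differed alike, with log2 ratios of -2.49 and -2.49. All 3 genes were thus lower in shallow and in deep barcodes of the high-fat library. Car7, a carbonic anhydrase, Echdc2, an enoyl-CoA hydratase domain protein, and Pgghg, a glucosidase of collagen sugars, had log2 ratios of -2.32, -2.46 and -2.05, on 27, 9 and 11 counts in the high-fat library.

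Others of the 10 genes enriched in both libraries and furthest above were Gadd45g, a stress and growth arrest gene, at 69.7 CPM (61.9 to 78.1) in the high-fat library and 21.3 CPM (15.5 to 28.5) in the no-diet-named library, and Rab3b, a small GTPase of vesicle release, at 38.9 CPM (33.1 to 45.3) in the high-fat library and 13.7 CPM (9.19 to 19.7) in the no-diet-named library. Prcd, named for a photoreceptor disease in dogs, was at 63.9 CPM (56.5 to 72.1) in the high-fat library and 24.1 CPM (18.0 to 31.7) in the no-diet-named library. The log2 ratios by depth were 0.28, 1.53 and 1.93 for Gadd45g, 1.77, 1.37 and 1.61 for Rab3b and 0.58, 1.51 and 1.98 for Prcd. Rab3b alone of these differed about as much in shallow as in deep barcodes. Ddah2, an enzyme that degrades inhibitors of nitric oxide synthesis, was at 46.5 CPM in the high-fat library and 17.5 CPM in the no-diet-named library, a log2 ratio of 1.41 over all depths. Cabp1, a calcium-binding protein, was at 27.0 CPM in the high-fat library and 9.46 CPM in the no-diet-named library (1.51 on the log2 scale), and Wfdc6a, a whey acidic protein domain gene, at 18.4 CPM in the high-fat library and 6.62 CPM in the no-diet-named library (1.47). The small GTPase Rasl11b had a log2 ratio of 1.82 on 28 counts in HF and 4 in NDN. Among the 10 genes furthest above, Rasl11b was the only one no longer enriched without the barcodes rich in elongating spermatid transcripts. G6pdx, the first enzyme of the pentose phosphate path, was at 14.1 CPM (10.7 to 18.2) in the high-fat library and 5.20 CPM (2.60 to 9.31) in the no-diet-named library.

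Of the 10 genes furthest below, 4 were genes of few barcodes. Jak3, a kinase of cytokine receptors, was at 232 CPM (218 to 247) in the high-fat library and 2039 CPM (1979 to 2101) in the no-diet-named library, but 8 Sertoli barcodes of the no-diet-named library that also met the rule for Leydig cells held 97.0% of its counts there. In the high-fat library 7 such barcodes held 61.3%. Without them its log2 ratio was 0.55, against -3.13 with them. The same holds for the steroidogenic enzymes Cyp17a1 and Hsd3b1 of Leydig cells and for Lcn2, lipocalin 2. The 8 barcodes held 99.2%, 93.9% and 94.3% of their counts, and the log2 ratios of -3.77, -3.14 and -2.69 turned to 1.00, 0.22 and 0.18 without them. The intervals of the last 3 ratios include 1, on few counts, and that of Jak3 runs from 1.19 to 1.80. The low values of these genes therefore do not describe the Sertoli barcodes as a group. For Cst9, Tnfrsf12a, Spink8 and Chp2 the log2 ratios without those barcodes were 3.42, -4.64, -3.10 and -1.99.

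**Figure D5:**
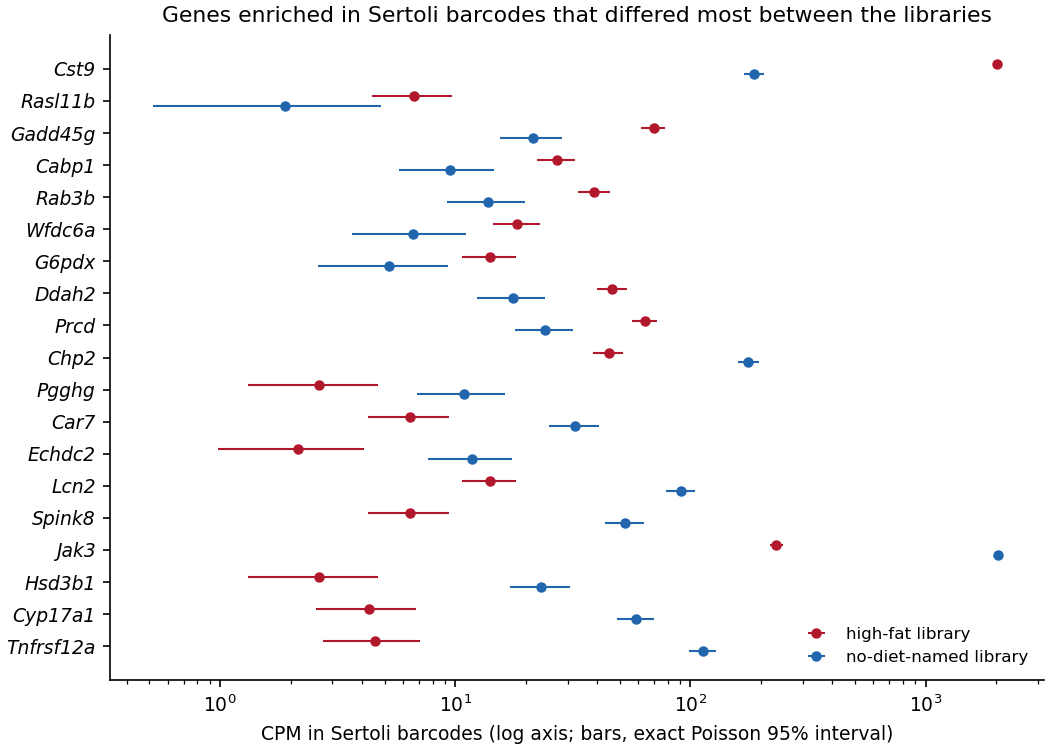
CPM summed over Sertoli barcodes (log axis) of 9 of the 10 genes furthest above and of the 10 furthest below, all enriched in both libraries, in the high-fat library (red) against the no-diet-named library (blue), ordered by ratio from the highest at the top. Bars are exact Poisson 95% intervals and cover counting error only. Cst9 and Tnfrsf12a stand at the ends, and Jak3, Lcn2, Cyp17a1 and Hsd3b1 had most of their no-diet-named counts in 8 barcodes.

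The secreted carriers and protease inhibitors had a median log2 ratio of 0.45. Of 12 measured genes 2 were higher and 1 lower, beside 5.82% and 4.82% of all measured genes. Besides Cst9 and Spink8 this was Trf, transferrin, at 41.3 CPM (35.4 to 47.9) in the high-fat library and 19.9 CPM (14.3 to 26.9) in the no-diet-named library. Its log2 ratios by depth were 0.085, -0.48 and 1.89, so that it was past 2-fold only in the deepest class. Sparc was at a ratio of 1.48 (1.40 to 1.56) and Ctsl at 1.34 (1.25 to 1.44), both under 2-fold. No gene of phagocytosis and lysosome (16 measured, median log2 ratio 0.14), of glucose and lactate supply (16, 0.019), of the cytoskeleton (11, 0.061) or of oxidative stress and iron (17, -0.11) differed by 2-fold over all depths. From the shallowest to the deepest class the medians were -0.47, 0.0096 and 0.36 for phagocytosis and lysosome, -0.31, -0.041 and 0.21 for glucose and lactate supply, -0.46, -0.047 and 0.63 for the cytoskeleton and -0.35, -0.091 and 0.16 for oxidative stress and iron. In the deepest class 2 genes each of the first 3 lists were at least 2-fold higher, beside 6.79% of all genes. Within the 4 lists, Tubb3, a neuronal beta-tubulin known as an androgen target in Sertoli cells, had the highest ratio of the cytoskeleton list, 1.80 (1.53 to 2.14). Fth1, the ferritin heavy chain, had 0.632 (0.595 to 0.671).

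Lipid and retinoid genes had medians below 0 over all depths. From the shallowest to the deepest class the median log2 ratio was -0.38, -0.026 and -0.18 for lipid genes. For retinoid genes it was -0.66, -0.21 and 0.087, so that it was not below 0 in the deepest class. Of 17 lipid genes measured 1 was lower and none was higher by 2-fold, 6 lay above the median of all genes, and the list's median log2 ratio was -0.35. The gene was Fabp3, a fatty acid binding protein, at 10.0 CPM (7.22 to 13.5) in the high-fat library and 37.4 CPM (29.6 to 46.6) in the no-diet-named library, and the same 8 barcodes held 92.4% of its counts in the no-diet-named library. Without the barcodes that met both rules its log2 ratio was 1.00 and the list's median -0.048. Fabp5 was at 94.0 CPM (84.9 to 104) in the high-fat library and 152 CPM (136 to 169.9) in the no-diet-named library, a ratio of 0.617 (0.531 to 0.717). Plin2, which coats lipid droplets, had a ratio of 1.55 (1.14 to 2.14), and Pnpla2, the lipase that opens them, 1.59 (1.36 to 1.86). Of 12 retinoid genes measured 1 was lower and none higher, with a median of -0.28. Over all measured genes 4.82% were lower and 5.82% higher. Aldh1a2, a retinoic acid synthesising enzyme that germ cells also express, was at 54.6 CPM (47.8 to 62.2) in the high-fat library and 109 CPM (95.7 to 124) in the no-diet-named library, and its ratios to the rest were 0.648 in HF and 0.773 in NDN. Aldh1a1, the Sertoli form, was at 102 CPM (92.9 to 113) in the high-fat library and 185 CPM (167 to 204) in the no-diet-named library, a ratio of 0.555 (0.482 to 0.638). The barcodes that met both rules held 2.80% of its counts in HF and 25.6% in NDN. Without them its log2 ratio was -0.48, and the interval of the ratio ran from 0.617 to 0.837.

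Heat shock and dissociation genes, which respond to handling of tissue, were the list with the highest median, 0.85 on the log2 scale, with 17 of 19 measured genes above the median of all genes. Of these 19, 6 were at least 2-fold higher, namely Ier3, Fosb, Btg2, Junb, Jund and the small heat shock protein Hspb1, and none lower. Over all measured genes 5.82% were higher and 4.82% lower. Hspb1 was at 356 CPM (339 to 375) in the high-fat library and 149.5 CPM (133 to 167) in the no-diet-named library, and Jund at 85.4 CPM (76.8 to 94.7) in the high-fat library and 31.2 CPM (24.2 to 39.7) in the no-diet-named library. Ier3, a stress-induced survival gene, had a ratio of 3.17 (1.42 to 8.34), but 1 barcode of HF held 20 of its 44 counts there, and without the top barcode of each library the interval of its ratio, 0.906 to 8.13, includes 1. The ratio was 3.24 (1.75 to 6.53) for Btg2, an antiproliferative early gene. By depth, 1 of 11 genes was higher at 1000 to under 1500 UMIs, 1 of 14 at 1500 to under 2500 UMIs and 10 of 19 at 2500 or more, with medians of 0.21, 0.066 and 1.07. Over all genes of these classes 9.10%, 6.59% and 6.79% were higher, so the list was near that share in the shallower classes. Of the Sertoli-enriched genes 190 of 1092 were higher in the deepest class. The log2 ratio of Btg2 was -0.38 and -0.63 in the shallower classes, and that of Junb -0.29 and -0.36. In the deepest class these genes and the Sertoli-enriched genes were higher in the high-fat library together, and whether handling differed between the libraries cannot be told apart from the diet named on the label.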

How the data were processed

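Single-cell RNA of mouse testis was measured in 2 libraries, and the deposited values are raw UMI counts per gene and barcode. Per the file headers the matrices were written by PISA 1.0, and the submitters' processing notes name Cell Ranger 2.1.1. Genome build, annotation and aligner settings: not given in the sources used here. No deposited barcode has under 1000 UMIs, so thinning to 1000 UMIs left out none. The members, lists and tests were chosen with earlier results of these data known. Counts were summed over the barcodes of each library and given as CPM with exact Poisson intervals, ratios with conditional binomial intervals and shares with Clopper-Pearson intervals (95%, counting error only; Python 3.11.15, scipy 1.17.1). A difference needed at least 20 counts and a 2-fold ratio whose interval excludes 1. Doublets were kept. Scrublet (scanpy 1.11.5) called 0 barcodes in HF and 652 in NDN by its own threshold, so the highest 6% of scores were used as calls. The 2-fold calls of genes were tested on simulated data with independent Poisson counts, which do not hold genes concentrated in few barcodes. The doublet calls were not tested. Named were the rule genes, members of the lists, the 20 genes with the highest lower bound of the ratio to the rest in the lower of both libraries, and the 10 highest and 10 lowest ratios between libraries among genes enriched in both. Results for 2 of these genes are not reported here. Depth classes were set by total UMIs. Chromosomes are those of GENCODE M21 (GRCm38), matched by gene ID. Alternatives were other limits of the rule, a depth minimum, doublet removal, thinning, equal weights, other scaling, subtraction of free RNA and a count minimum of 100. Chosen after seeing the data were the doublet rate, the limit for elongating spermatid content and the removal of barcodes rich in it or meeting the Leydig rule.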

Additional observations from a re-analysis of the deposited data

Results flagged for a closer look

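The direction between libraries depended on depth within the Sertoli barcodes. The median log2 ratio (high-fat over no-diet-named library) of the Sertoli-enriched genes was -0.50 at 1000 to under 1500 UMIs and 0.57 at 2500 or more. The difference between classes was not tested, and doublet calls were 0.622% of Sertoli barcodes in the high-fat library and 2.16% in the no-diet-named library in the shallow class, and 9.60% in the high-fat library and 16.1% in the no-diet-named library in the deep class.

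For 4 genes the Sertoli barcodes and the rest of the barcodes differed in opposite directions, with intervals that exclude 1 in both, and the difference itself was not tested. Gadd45g had a log2 ratio of 1.71 in Sertoli barcodes and -0.30 in the rest, Rab3b 1.50 and -0.74, and Prcd 1.41 and -0.38. Jak3 had -3.13 and 0.084, and its value in Sertoli barcodes was 0.55 without those that also met the Leydig rule.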

How the results depend on the processing

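No paired analysis was possible because each group is 1 library. The difference in the share of barcodes, 5.36 percentage points, was 3.46 among barcodes of at least 2000 UMIs. The 836 genes higher and 692 lower became 1461 and 1700 with free RNA subtracted (at 61.8% of the level of the rest in HF and 63.9% in NDN), 293 and 160 with at least 100 counts, and 414 lower among Sertoli barcodes of 1500 to under 2500 UMIs. The median log2 ratio of Sertoli-enriched genes, 0.047, was 0.45 at 2000 or more UMIs, -0.21 with equal weights, -0.21 after thinning and -0.50, -0.15 and 0.57 in the depth classes. The other 37 planned and 12 added values moved less, though higher genes became 1186 with equal weights and 1165 at 10 per 10000, and of the 836 higher genes 397 were called after thinning and 240 at 1000 to under 1500 UMIs. Signs turned at 1000 to under 1500 UMIs for Btg2 (-0.38), Fosb (-0.38), Junb (-0.29) and Fabp3 (0.32), and at 1500 to under 2500 UMIs for Btg2 (-0.63), Ier3 (-0.24), Junb (-0.36), Trf (-0.48) and Hsd3b1 (0.41). Hsd3b1 also turned at 40 per 10000 (0.28) and without Clu, Amhr2 and Etd in the rule (0.16). Without the barcodes meeting the Leydig rule, Cyp17a1 (1.00), Fabp3 (1.00), Hsd3b1 (0.22), Jak3 (0.55) and Lcn2 (0.18) turned, and those barcodes held most of their counts. The cause of the other changes was not tested. Of 319 values of the 20 genes furthest above or below, 312 kept their direction. Sums of 4191445 UMIs in HF and 2113558 in NDN cannot show genes under 0.716 CPM in HF and 1.42 CPM in NDN.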

Other observations

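Some genes against oxidative stress and of the cytoskeleton were enriched in Sertoli barcodes, beside 5.80% of all genes with enough counts. Of 19 oxidative stress and iron genes 7 were enriched in both libraries, and the list's median ratio to the rest was 1.97 in HF and 2.34 in NDN. Gsta4, a glutathione transferase, was at 368 CPM (349.5 to 386) in the high-fat library and 325 CPM (301 to 350.3) in the no-diet-named library, with ratios to the rest of 159 in HF and 163 in NDN, and Gstm2, of the same enzyme family, was at 770.1 CPM (744 to 797) in the high-fat library and 830.4 CPM (792 to 870.1) in the no-diet-named library, with ratios of 99.2 in HF and 116 in NDN. Gsta2, Gstm1, Gpx1 (a glutathione peroxidase), Hmox1 (haem oxygenase) and Ftl1 (the ferritin light chain) made up the rest of the 7. How reads were split between related glutathione transferases was not tested. Of 14 cytoskeleton genes 6 were enriched, and among them Tuba1a, an alpha-tubulin, had ratios of 109 in HF and 126 in NDN and Vim (vimentin), the intermediate filament protein used to stain Sertoli cells, 24.8 in HF and 27.4 in NDN. Vim was at 209.9 CPM in HF and 199 CPM in NDN in Sertoli barcodes that met no other rule, against 391 CPM in HF and 450.4 CPM in NDN in stroma barcodes. Eps8, an actin regulator of the Sertoli junctions, had 16.7 in HF and 5.94 in NDN.

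Of 21 heat shock and dissociation genes 4 were enriched in Sertoli barcodes of both libraries. Hspb1 had ratios of 52.2 in HF and 25.2 in NDN, Ier2 14.6 in HF and 6.51 in NDN, Hspd1 11.2 in HF and 12.0 in NDN and Hspa8 6.13 in HF and 4.82 in NDN. Their part in the suspension or in the tissue was not tested.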
